A study of Mus musculus with 6 samples.

Results

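The 10 genes described here mark fat cells of the bone marrow and were followed in 6 RNA-seq libraries from the inbred Collaborative Cross strain CC016/GeniUnc. They are *Adipoq*, *Cfd*, *Lep*, *Plin1*, *Plin4*, *Cidec*, *Fabp4*, *Cd36*, *Lpl* and *Pparg*, chosen by name, with FPKM summed over features that share a name. FPKM counts the fragments on a gene relative to the length of its transcript and to the fragments of the library. Of the 10 genes, 8 were found by name among 48734 named genes. *Pparg* and *Plin4* had no named feature and were read from unnamed features at their positions.

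The study asked which genes of a bone density locus are expressed in bone and in osteoblasts, the cells that build it. By the study's methods, the 3 libraries labelled bone were made from femora, from which marrow was isolated. The 3 labelled osteoblasts were grown from adherent stromal cells of the marrow (BMSCs). Their medium held dexamethasone at 10 nM, ascorbic acid at 50 µg/ml and beta-glycerophosphate at 10 mM for 8 days of differentiation. No engineered allele is named for either label. Each library is named here by its label and replicate number, and the labels do not say which bone and which osteoblast library came from the same mouse.

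Marrow adipocytes arise from stromal precursors that can also form osteoblasts. The nuclear receptor PPARγ, encoded by *Pparg*, drives their differentiation together with factors of the C/EBP family. It switches on genes for fatty acid uptake (*Cd36*, *Lpl*), binding (*Fabp4*), storage in lipid droplets (*Plin1*, *Plin4*, *Cidec*) and secreted hormones (*Adipoq*, *Cfd*, *Lep*). Several of these genes are not restricted to fat cells. Macrophages also make *Lpl* and *Cd36*, capillary endothelium also makes *Cd36* and *Fabp4*, and reticular stromal cells of the marrow also make *Adipoq*.

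The libraries did not sort by their labels, which bears on each value that follows. *Hbb-bt*, an adult β-globin gene, measured 7.05, 3.58 and 34838 FPKM in bone 1, 2 and 3 and 3.43, 34268 and 48650 FPKM in osteoblasts 1, 2 and 3. It was thus above 1000 FPKM in bone 3, osteoblasts 2 and osteoblasts 3, and at or under 1000 FPKM in bone 1, bone 2 and osteoblasts 1. The summed FPKM of 5 neutrophil markers ran from 13333 to 16312 in the libraries with high *Hbb-bt* and from 0.110 to 5.14 in the other 3. That of 4 skeletal muscle markers ran from 232 to 1068 and from 0.0324 to 1.09, with *Tnnt3* and *Mb* at 0 in each library with low *Hbb-bt*. Bone cell markers did not move as a group. Of the osteocyte genes, *Sost* was highest in the libraries with high *Hbb-bt* (15.8 to 22.7 FPKM, and at most 0.198 FPKM elsewhere), *Dmp1* in those with low *Hbb-bt* (50.0 to 127 and 22.5 to 24.2 FPKM), and *Phex* in neither. Of the osteoblast genes, *Ibsp* measured 986 to 1278 FPKM with low *Hbb-bt* and 43.1 to 91.3 FPKM with high *Hbb-bt*, *Alpl* had the same order, and *Sp7*, *Runx2* and *Col1a1* overlapped, the last at 1499 FPKM or more in all 6 libraries. Libraries labelled osteoblasts thus stood on both sides of the split, as did those labelled bone, and whether a label was exchanged was not tested. The 3 libraries on either side are described singly and were not averaged, because the split is made from measured values. The libraries held 2.03 to 3.39 Gb of aligned bases, at which a 1 kb transcript with 3 read pairs would have 0.133 to 0.221 FPKM. Unnamed features took 71.5% of the summed FPKM in bone 2 and 65.0% in osteoblasts 1, against 27.4 to 30.7% in the other 4 libraries. The values were also rescaled to the summed FPKM of the named genes. A share of summed FPKM is not a share of reads, and how far unnamed features lowered other values was not tested. The rescaling multiplied bone 1, 2 and 3 by 1.09, 1.83 and 0.743 and osteoblasts 1, 2 and 3 by 1.67, 0.755 and 0.789. It thus raised each library with low *Hbb-bt* and lowered each with high *Hbb-bt*. Another rescaling used the 75th percentile of genes with at least 1 FPKM. It multiplied bone 2 by 1.35, osteoblasts 1 by 1.11 and the other 4 libraries by 0.786 to 0.999.

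In the coordinates of the deposited tables (GRCm38), *Adipoq* lies on the plus strand of chromosome 16 from 23146536 to 23158028, *Cfd* on the plus strand of chromosome 10 from 79890853 to 79892655 and *Lep* on the plus strand of chromosome 6 from 29060220 to 29073877. *Plin1* is on the minus strand of chromosome 7 from 79720218 to 79732903, *Cidec* on the minus strand of chromosome 6 from 113424634 to 113435760 and *Fabp4* on the minus strand of chromosome 3 from 10204088 to 10208576. *Cd36* lies on the minus strand of chromosome 5 from 17781690 to 17888801 and *Lpl* on the plus strand of chromosome 8 from 68880491 to 68907448. The unnamed feature taken for *Pparg* is on the plus strand of chromosome 6 from 115360849 to 115490399 and holds 99.996% of the gene's RefSeq span. That taken for *Plin4* is on the minus strand of chromosome 17 from 56100533 to 56110320 and holds 100% of it. The *Plin4* feature overlaps the end of *Hdgfl2* on the other strand, and the counting was not stated to use strand, so reads in the overlap cannot be told apart.

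RefSeq promoter windows (GRCm38.p6, from 250 bases before a start site to 50 after it) were held for 8 of the 10 genes, in 11 windows, and not for *Fabp4* and *Lpl*. They were searched on both strands for the element bound by PPAR with RXR, which is a direct repeat of AGGTCA with 1 base between the copies, for a lone AGGTCA, for the C/EBP motif TTGCGCAA and its loose form TTNNGNAA, and for TATAAA. Matches of TTGCGCAA are also matches of TTNNGNAA, and those of the repeat also of AGGTCA. The repeat was in 0 of the 11 windows, against 0.0396% of 32851 windows of all genes. AGGTCA was in 3 (16.3% of all windows), TTGCGCAA in 1 (0.183%), TTNNGNAA in 7 (40.7%) and TATAAA in 1 (13.6%). The upstream 250 bases of 4 windows are shown 5′ to 3′ on the strand of the gene, with matches on either strand in capitals. *Adipoq* and *Cd36* are shown because the same 8 letters occur in both, while *Cd36* was the gene of the set whose levels were furthest from those of *Adipoq*. *Lep* is shown for its TTGCGCAA 55 to 48 bases before the start, and 1 of the 3 *Pparg* windows for its TATAAA on the other strand followed by AGGTCA. The *Cd36* window lies inside the gene, far from its upstream end at 17888801, and no window was held for that end. A match of letters is not a bound site, and no binding was measured here.
Adipoq (chr16:23146286-23146535, plus strand): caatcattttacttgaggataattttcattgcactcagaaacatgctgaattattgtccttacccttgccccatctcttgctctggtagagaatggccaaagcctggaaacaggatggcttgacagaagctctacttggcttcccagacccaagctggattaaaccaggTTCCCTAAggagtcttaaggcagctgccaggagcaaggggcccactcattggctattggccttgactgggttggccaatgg
Cd36 (chr5:17835897-17836146, minus strand): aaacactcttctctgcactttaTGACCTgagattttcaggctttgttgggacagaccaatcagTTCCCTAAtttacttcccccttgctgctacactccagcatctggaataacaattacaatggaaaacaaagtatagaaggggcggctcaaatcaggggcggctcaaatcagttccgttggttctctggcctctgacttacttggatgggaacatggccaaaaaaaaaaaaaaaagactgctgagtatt
Lep (chr6:29059971-29060220, plus strand): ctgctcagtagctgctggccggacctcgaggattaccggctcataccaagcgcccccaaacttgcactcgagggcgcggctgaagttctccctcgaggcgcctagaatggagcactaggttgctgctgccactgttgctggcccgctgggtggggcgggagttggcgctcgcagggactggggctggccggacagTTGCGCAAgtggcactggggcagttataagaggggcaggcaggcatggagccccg
Pparg (chr6:115362099-115362348, plus strand): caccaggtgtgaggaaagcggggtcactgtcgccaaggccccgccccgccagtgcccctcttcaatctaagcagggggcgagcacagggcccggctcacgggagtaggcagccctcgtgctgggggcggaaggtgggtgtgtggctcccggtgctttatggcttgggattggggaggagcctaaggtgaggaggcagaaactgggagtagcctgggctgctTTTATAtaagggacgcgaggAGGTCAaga

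The secreted products differed most in how evenly they were spread. *Adipoq* encodes adiponectin, a hormone of fat cells that raises insulin sensitivity. It measured 73.4, 9.16 and 37.7 FPKM in bone 1, 2 and 3 and 33.5, 48.8 and 50.8 FPKM in osteoblasts 1, 2 and 3. Bone 1 was the highest library and bone 2 the lowest, and the osteoblast libraries lay between them. In bone 2 *Adipoq* was still above 70.3% of the genes with at least 1 FPKM there, and in the other 5 libraries it was above 90.1 to 94.4% of them. The mean was 40.1 ± 32.2 FPKM (SD, n = 3) under the label bone and 44.4 ± 9.51 FPKM (SD, n = 3) under the label osteoblasts, a difference well inside the spread of bone.

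*Cfd*, which encodes complement factor D (adipsin), a protease that starts the alternative complement pathway, had the widest range of the secreted genes. It measured 101, 5.09 and 140 FPKM in bone 1, 2 and 3 and 24.2, 163 and 109 FPKM in osteoblasts 1, 2 and 3. The 3 libraries with high *Hbb-bt* were the highest, with bone 1 close behind, and bone 2 and osteoblasts 1 were far lower. The means were 82.0 ± 69.4 FPKM (SD, n = 3) in bone and 98.6 ± 69.9 FPKM (SD, n = 3) in osteoblasts. *Lep*, which encodes the satiety hormone leptin, was close to the limit of detection. It was listed at 0 in bone 1 and bone 2 and measured 0.341 FPKM in bone 3, and 0.227, 0.401 and 0.650 FPKM in osteoblasts 1, 2 and 3. For a transcript of its length, 3 read pairs would give 0.0555 FPKM in bone 1 and 0.0628 FPKM in bone 2, which are the upper limits there as far as counting error goes. The value in osteoblasts 1 corresponds to about 10.0 read pairs and that in osteoblasts 3 to about 36.0. On the scale of the named genes, the osteoblast values of *Lep* (0.303 to 0.513) were all above the highest bone value (0.253). They were not in FPKM, in TPM (FPKM rescaled within a library) or under the other rescaling. That order came from multiplying osteoblasts 1 by 1.67 and bone 3, with about 18.6 read pairs, by 0.743. On that scale 264 of the 12112 genes averaging 1 FPKM or more had this order and 41 the reverse, against 58 and 53 in FPKM. *Lep* averaged less and was not among them. *Lep* was detected in 4 of 6 libraries at levels below every other gene of the set.

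**Figure D1:**
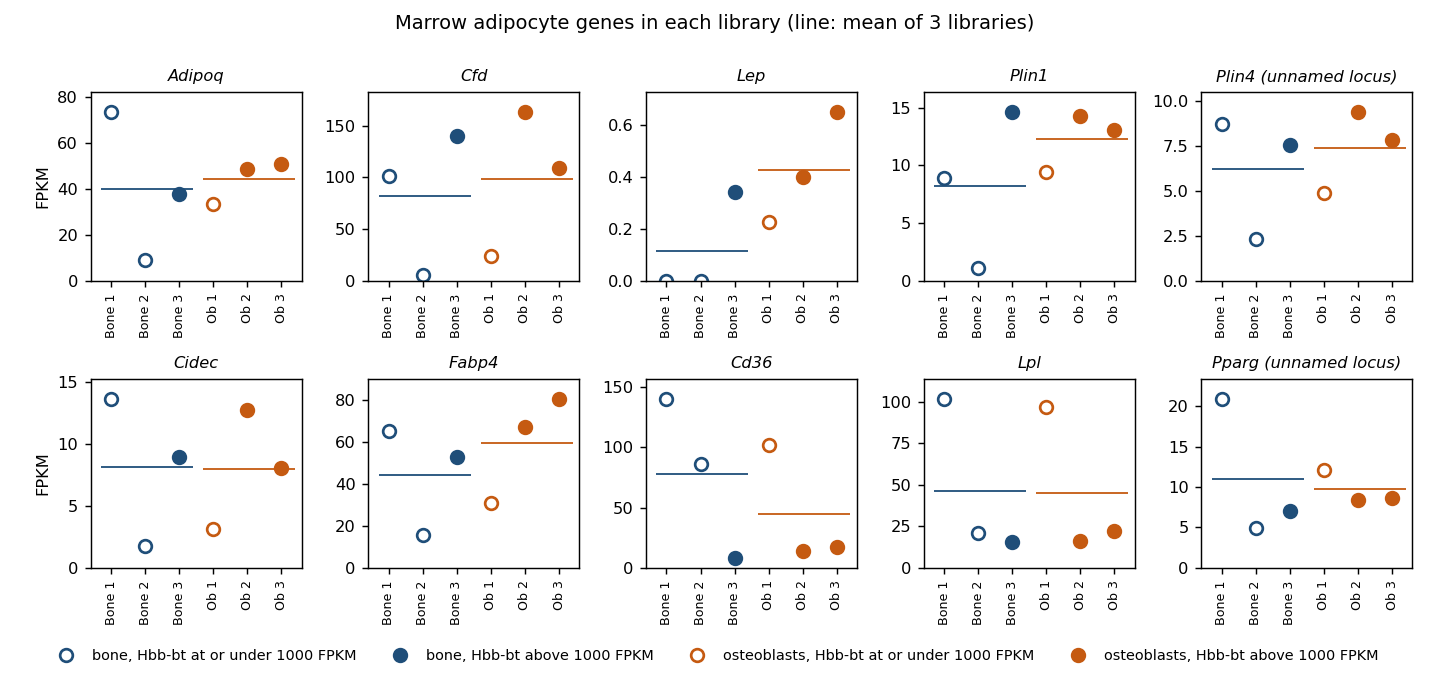
FPKM of the 10 marrow adipocyte genes in each library (linear axes from 0, 1 panel per gene; Ob, osteoblasts). Each circle is 1 library, filled where *Hbb-bt* was above 1000 FPKM, and each line is the mean of the 3 libraries of a label; the circles of the labels overlap in all 10 panels, bone 2 is the lowest library in 7, and *Cd36* is high in the open circles.

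The genes that coat and enlarge the lipid droplet were of middling level. *Plin1* encodes perilipin 1, which covers the droplet of mature adipocytes and controls access of lipases. It measured 8.89, 1.11 and 14.6 FPKM in bone 1, 2 and 3 and 9.40, 14.2 and 13.1 FPKM in osteoblasts 1, 2 and 3. The 3 libraries with high *Hbb-bt* were the highest, bone 1 and osteoblasts 1 were near each other, and bone 2 was far below. After scaling to the named genes, osteoblasts 1 was the highest at 15.7 and bone 2 still the lowest at 2.03. In bone 2 *Plin1* exceeded only 2.52% of the genes with at least 1 FPKM, against 52.8 to 74.9% in the other libraries. An unnamed feature without a strand inside the gene reached at most 1.00 FPKM.

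*Cidec* encodes a protein that joins small droplets into a large one. Its values were 13.6, 1.79 and 8.94 FPKM in bone 1, 2 and 3 and 3.13, 12.8 and 8.08 FPKM in osteoblasts 1, 2 and 3. The locus of *Plin4*, whose product coats small droplets, measured 8.69, 2.30 and 7.54 FPKM in bone 1, 2 and 3 and 4.89, 9.36 and 7.82 FPKM in osteoblasts 1, 2 and 3. For both genes bone 2 and then osteoblasts 1 were the lowest libraries, and the other 4 lay within 8.08 to 13.6 FPKM for *Cidec* and 7.54 to 9.36 FPKM for *Plin4*. Scaled to the named genes this held for *Cidec*, while for *Plin4* osteoblasts 1, at 8.15, came next to bone 1 as the highest library and bone 2 remained the lowest at 4.20. The mean of *Plin1* was 8.20 ± 6.77 FPKM in bone and 12.2 ± 2.53 FPKM in osteoblasts (SD, n = 3 each), that of *Cidec* 8.12 ± 5.97 and 8.00 ± 4.83 FPKM, and that of *Plin4* 6.18 ± 3.40 and 7.36 ± 2.27 FPKM.

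Other members of these gene families varied in pattern. Perilipin 2, encoded by *Plin2* and made in many cell types that store lipid, measured 110, 45.4 and 28.2 FPKM in bone 1, 2 and 3 and 86.1, 35.6 and 32.5 FPKM in osteoblasts 1, 2 and 3, highest in the libraries with low *Hbb-bt*. Its ratio to *Plin1* was 40.8 in bone 2, 12.4 in bone 1 and 9.17 in osteoblasts 1, and 1.93 to 2.50 in the other 3 libraries. A ratio within a library does not depend on how the library was scaled. *Plin3*, which is broadly expressed, measured 30.5 FPKM in bone 1 and 16.1 to 17.9 FPKM in the other 5 libraries. *Plin5*, a perilipin of oxidative tissues, reached at most 1.52 FPKM and, like *Plin1*, had its 3 highest values in the libraries with high *Hbb-bt*. *Cidea* and *Cideb*, the relatives of *Cidec*, reached at most 0.354 and 0.0728 FPKM, and *Cidea* was listed at 0 in each library with low *Hbb-bt*.

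Among the genes of fatty acid handling, *Fabp4* followed *Adipoq* and the others did not. *Fabp4* encodes the adipocyte fatty acid binding protein aP2. It measured 65.2, 15.3 and 52.6 FPKM in bone 1, 2 and 3 and 30.9, 67.0 and 80.2 FPKM in osteoblasts 1, 2 and 3, with means of 44.4 ± 25.9 and 59.4 ± 25.5 FPKM (SD, n = 3 each). Bone 2 and osteoblasts 1 were the lowest libraries and the other 4 were within 52.6 to 80.2 FPKM. Scaled to the named genes, osteoblasts 1 at 51.5 was above bone 3 at 39.0 and osteoblasts 2 at 50.6, and bone 2 was still the lowest at 28.0. The heart-type relative *Fabp3* ran from 2.15 to 7.75 FPKM, below *Fabp4* in each library.

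*Cd36*, a membrane receptor that takes up long-chain fatty acids and oxidised lipoproteins, measured 140, 86.4 and 7.79 FPKM in bone 1, 2 and 3 and 102, 14.0 and 16.8 FPKM in osteoblasts 1, 2 and 3. The 3 libraries with low *Hbb-bt* were at 86.4 FPKM or more and the other 3 at 16.8 FPKM or less, so the labels overlapped and the *Hbb-bt* split did not. The label means were 78.1 ± 66.6 FPKM in bone and 44.3 ± 50.1 FPKM in osteoblasts (SD, n = 3 each). *Lpl*, which encodes the lipase that frees fatty acids from circulating lipoproteins, measured 102, 21.0 and 15.7 FPKM in bone 1, 2 and 3 and 97.1, 16.4 and 22.3 FPKM in osteoblasts 1, 2 and 3. Bone 1 and osteoblasts 1 stood far above the other 4 libraries, and the means, 46.1 ± 48.2 and 45.2 ± 45.0 FPKM (SD, n = 3 each), differed by little beside that spread. *Gpihbp1*, the endothelial protein that holds the lipase on the capillary wall, was listed at 0 in bone 1 and osteoblasts 1, where *Lpl* was highest. It measured 0.0755 FPKM in bone 2, 7.81 FPKM in bone 3 and 11.1 and 10.1 FPKM in osteoblasts 2 and 3.

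The locus of *Pparg* measured 20.9, 4.94 and 6.98 FPKM in bone 1, 2 and 3 and 12.1, 8.39 and 8.69 FPKM in osteoblasts 1, 2 and 3. Bone 1 was the highest and osteoblasts 1 came next, while the 3 libraries with high *Hbb-bt* were close to each other and above bone 2. With values scaled to the named genes, bone 2 at 9.02 was instead above those 3 libraries, at 5.18 to 6.86, so the 3 highest values were in the libraries with low *Hbb-bt*. The label means were 10.9 ± 8.68 and 9.73 ± 2.06 FPKM (SD, n = 3 each). The only named feature inside the gene, *Gm44079* on the other strand, was listed at 0 in each library.

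Macrophage markers were highest in the same libraries as *Cd36*. The 5 markers were *Cd68*, *Csf1r*, *Adgre1*, *C1qa* and *Mrc1*. Of these, 5 had their 3 highest values in the libraries with low *Hbb-bt*, as did 16.9% of all genes tested. None of the 5 markers was at 0 in any library. Their summed FPKM was 2035 in bone 1, 1037 in bone 2 and 1136 in osteoblasts 1, and 303 to 394 in the libraries with high *Hbb-bt*. *Lpl* was high in bone 1 and osteoblasts 1 but not in bone 2, whose macrophage sum was close to that of osteoblasts 1. The ratio of *Cd36* to a macrophage marker spanned 1.61-fold over the 6 libraries for *Mrc1*, 2.37-fold for *Adgre1*, 3.12-fold for *Csf1r*, 3.65-fold for *C1qa* and 5.28-fold for *Cd68*, and its ratio to *Adipoq* 45.6-fold. All 6 endothelial markers were highest in the libraries with high *Hbb-bt*, as were 38.4% of all genes tested. The summed FPKM of these markers was 75.1 to 90.0 there and 2.88 to 11.3 in the others, where *Tek* was listed at 0 in bone 2. The part of macrophages and of endothelium in the values of *Cd36*, *Lpl*, *Fabp4* and the *Pparg* locus was not tested. In such bulk libraries, fewer cells of a type and less RNA per cell cannot be told apart.

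**Figure D2:**
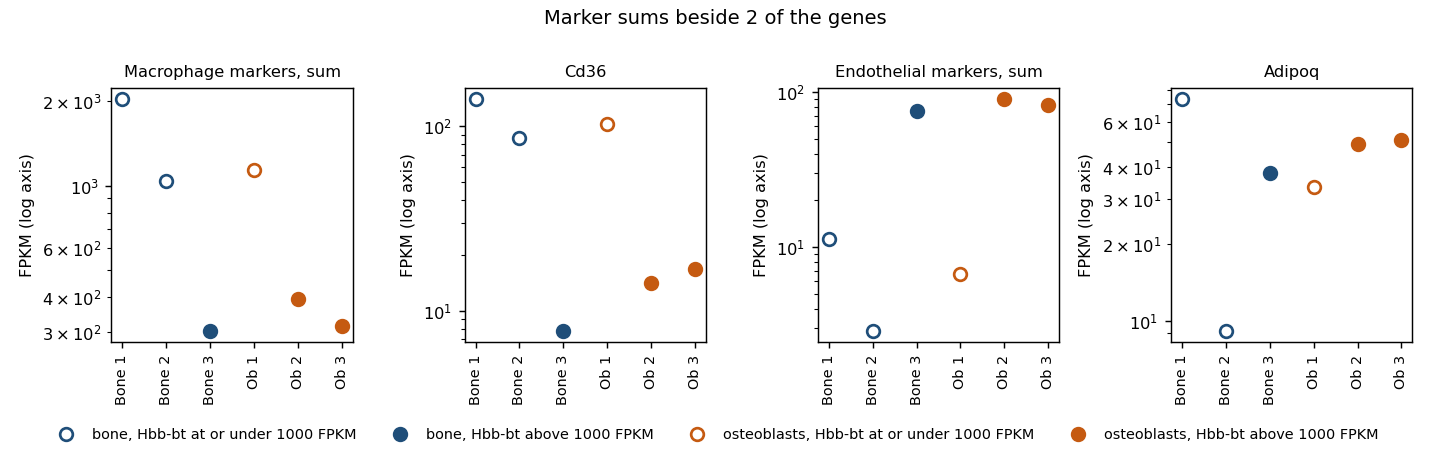
Summed FPKM of 5 macrophage markers, FPKM of *Cd36*, summed FPKM of 6 endothelial markers and FPKM of *Adipoq* in each library, on logarithmic axes (Ob, osteoblasts; filled circles, *Hbb-bt* above 1000 FPKM). *Cd36* and the macrophage sum are higher in each open circle than in any filled one, the endothelial sum is higher in each filled circle, and *Adipoq* overlaps between open and filled circles.

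The make-up of the set differed between libraries. *Cd36* and *Lpl* together held 45.3% of the summed FPKM of the 10 genes in bone 1, 73.0% in bone 2 and 62.7% in osteoblasts 1, and 8.03 to 12.3% in the other 3. *Cfd* alone held 34.3 to 47.9% in the libraries with high *Hbb-bt* and 3.46 to 18.9% in the others. The share of *Adipoq* was narrower, from 6.23% in bone 2 to 16.0% in osteoblasts 3.

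**Figure D3:**
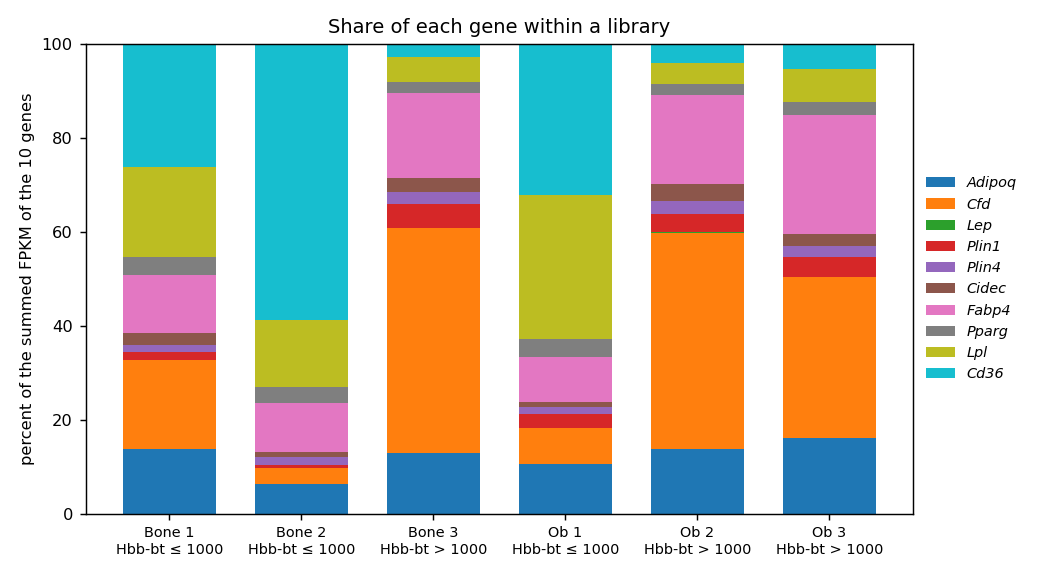
Share of each of the 10 genes in their summed FPKM, in percent, with 1 bar per library (Ob, osteoblasts; the *Hbb-bt* level in FPKM is given under each bar). *Cd36* and *Lpl* fill 45.3 to 73.0% of the bars with *Hbb-bt* at or under 1000 FPKM and 8.03 to 12.3% of the others, where *Cfd* is the largest share.

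As ratios to *Adipoq*, the genes fell into an order. The ratio of *Fabp4* was the steadiest, between 0.888 and 1.67, a 1.88-fold range over the 6 libraries. Those of *Plin4*, *Cidec*, *Pparg* and *Plin1* spanned 2.12-, 2.79-, 3.16- and 3.20-fold, and those of *Cfd*, *Lpl* and *Cd36* 6.68-, 8.66- and 45.6-fold. The ratios of *Pparg*, *Lpl* and *Cd36* were higher in each library with low *Hbb-bt* than in any with high *Hbb-bt*. Those of *Cfd* and *Lep* were lower, the latter from values close to the limit of detection. How many of all genes show either order in their ratio to *Adipoq* was not computed, so these orders are descriptions. No ratio separated the labels.

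Likeness was also measured as the root mean square distance between log2(FPKM + 1) values, each gene centred on its mean over the 6 libraries. The 5 named genes nearest to *Adipoq* were *Igfbp3* at 0.23, *Gm14176* and *Olfml2a* at 0.24, *Rarres2* at 0.25 and *Hp* at 0.28. *Rarres2* encodes the adipokine chemerin and *Hp* the plasma protein haptoglobin. Of the set, *Fabp4* stood at 0.34, with 0.116% of the 12112 genes of mean FPKM of at least 1 nearer to *Adipoq* than it was, *Plin4* at 0.41 (0.289% nearer), *Cidec* at 0.43 (0.388%) and *Plin1* at 0.51 (1.60%). Further away were *Pparg* at 0.60 (12.5%), *Cfd* at 1.00 (76.6%), *Lpl* at 1.21 (88.1%) and *Cd36* at 1.96 (97.6%). The median for all genes was 0.78. *Lep* stood at 0.84 (59.9%), but it ran only from 0 to 0.650 FPKM and so hardly varied on this scale. *Lep* is not among the 12112 genes, and its distance says little about its pattern. The 5 genes nearest to the *Pparg* locus were *Il1rn*, *Plpp3*, *Fzd4*, *Plagl1* and *Pcsk5*, at 0.12 to 0.14. The 6 libraries share depth and scaling across genes, so these distances are descriptions.

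By label, none of the genes passed the test. limma on log2(FPKM + 1), with Benjamini-Hochberg adjustment over the 12112 genes, called 0 genes higher and 0 lower in osteoblasts than in bone (0% of genes in either direction), and 17 genes had an unadjusted p under 0.05. Of the 8 named genes, 7 passed the filter of a mean of 1 FPKM, *Lep* being below it, and each had an adjusted p of 0.999. The difference, osteoblasts minus bone on that log2 scale, was 0.92 (SE 0.71) for *Plin1*, 0.79 (SE 1.19) for *Cfd*, 0.54 (SE 0.72) for *Adipoq* and 0.54 (SE 0.67) for *Fabp4*. It was 0.12 (SE 0.70) for *Cidec*, 0.03 (SE 0.87) for *Lpl* and −0.66 (SE 1.11) for *Cd36*. The median over the 7 genes was 0.54, with 6 differences above 0, beside a median of 0.12 and 62.6% of differences above 0 over all genes tested. In a fit that also held unnamed features, the loci of *Pparg* and *Plin4* differed by 0.07 (SE 0.56) and 0.33 (SE 0.53), each with an adjusted p of 1.00. These errors leave room for differences of either sign in each gene.

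The signs rested on single libraries. Without bone 2 the difference of *Adipoq* was −0.26, that of *Cfd* −0.64, that of *Cidec* −0.59, that of *Fabp4* −0.09, that of *Lpl* −0.28, that of *Pparg* −0.32 and that of *Plin4* −0.16. Without bone 1 that of *Cd36* was 0.13. *Plin1* kept a positive difference whichever library was left out, from 0.07 to 1.52. Within the libraries with low *Hbb-bt* (bone 1 and 2 against osteoblasts 1) the differences of *Plin1* and *Lpl* were 1.19 and 1.05, those of *Adipoq* and *Cfd* 0.33 and 0.02, and those of *Fabp4*, *Cd36* and *Cidec* −0.04, −0.11 and −0.63. Within those with high *Hbb-bt* (bone 3 against osteoblasts 2 and 3) they were −0.09 for *Plin1*, −0.07 for *Cfd*, 0.17 for *Cidec*, 0.27 for *Lpl*, 0.40 for *Adipoq*, 0.47 for *Fabp4* and 0.90 for *Cd36*. None was called in either fit, each of which has a lone library under 1 label that is assumed to vary like the others.

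**Figure D4:**
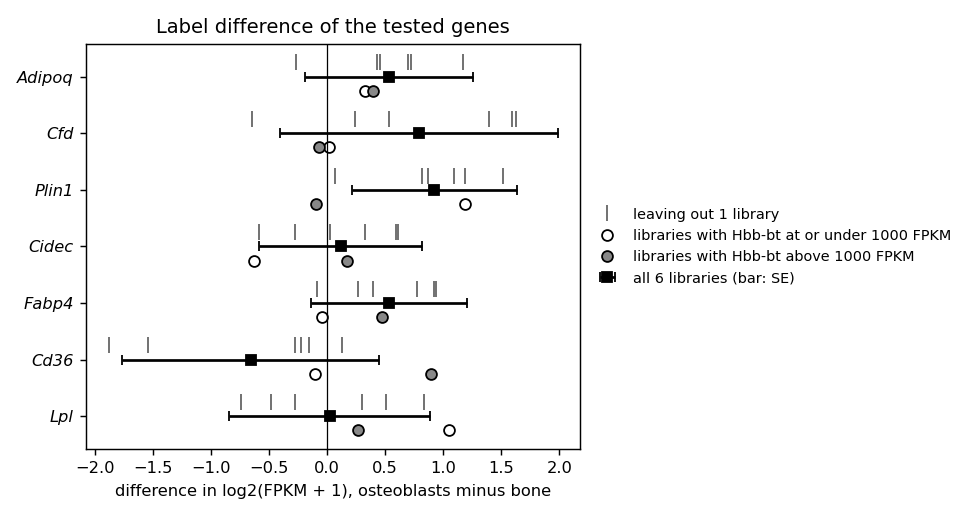
Difference between the labels, osteoblasts minus bone, in log2(FPKM + 1) for the 7 genes tested. Squares with bars are the limma estimates and their SE over 6 libraries, ticks are the estimates with 1 library left out, and circles those within the libraries of low (open) or high (grey) *Hbb-bt*; the ticks of every gene but *Plin1* lie on both sides of 0.

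Counted by order, none of the 7 genes tested had all its osteoblast values above its bone values or the reverse, which 0.479% and 0.438% of all genes tested did. By the *Hbb-bt* split, *Cd36* had its 3 highest values in the libraries with low *Hbb-bt*, as did 16.9% of all genes, and *Plin1* and *Cfd* had theirs in the libraries with high *Hbb-bt*, as did 38.4%. These counts, 1 and 2 of 7, are therefore near what all genes show. Scaled to the named genes they were 2 (*Cd36* and *Lpl*, and also the *Pparg* locus, which is not among the 7) and 0, beside 48.6% and 21.4% of all genes. Scaled to the 75th percentile they were 2 (*Cd36* and *Lpl*) and 3 (*Plin1*, *Cfd* and *Fabp4*, and also the *Plin4* locus), beside 24.2% and 44.7%. By TPM they were 1 (*Cd36*) and 1 (*Plin1*), beside 15.7% and 25.9%. The place of *Plin1* and *Cfd* thus depended on the scaling, while that of *Cd36* did not under FPKM, TPM or either rescaling. Bone 2 was the lowest library for 7 of the 10 genes, beside 54.2% of all genes tested, and for 6 of 10 when scaled to the named genes, beside 23.4%.

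The rest of the adipocyte programme was read from a list of 54 other genes, of which 49 had a named feature and 41 passed the filter. None of the 41 was called by limma, with a median difference between the labels of 0.20, above 0 in 28 genes (68.3%, beside 62.6% of all genes tested) and below in 13. Of the 41 genes, 17 had their 3 highest values in the libraries with high *Hbb-bt* and 5 in those with low *Hbb-bt*, beside the 38.4% and 16.9% of all genes given above. Scaled to the named genes the counts were 12 and 13, beside 21.4% and 48.6% of all genes. *Srebf1*, *Agpat2*, *Gpam*, *Bscl2* and *Fabp5* had no named feature and were not analysed here.

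By role, the 17 genes included 3 of the 7 tested for the lipid droplet and lipolysis and 3 of 9 for lipid synthesis. Uptake and transport gave 5 of 8 and receptors 3 of 4. Transcription factors gave 1 of 8, secreted products 1 of 4 and thermogenic genes 1 of 1. These small counts stand beside 38.4% of all genes and were not tested against other genes. *Dgat1* and *Dgat2*, which catalyse the last step of triglyceride synthesis, measured 33.3 to 37.1 and 15.1 to 17.8 FPKM in the libraries with high *Hbb-bt*, and 5.23 to 9.35 and 1.33 to 3.29 FPKM in the others. The monoglyceride lipase *Mgll* measured 44.8 FPKM in bone 3 and 29.1 and 45.2 FPKM in osteoblasts 2 and 3, and 5.08 to 9.30 FPKM elsewhere. *G0s2*, an inhibitor of the lipase ATGL, measured 15.8 to 21.9 FPKM in the former and 0.475 to 5.96 FPKM in the latter. Neutrophil and erythroid markers were highest in the same libraries, and the part of those cells in these values was not tested. The insulin-responsive glucose transporter *Slc2a4*, which muscle also uses, was highest in bone 3 at 22.9 FPKM, the library with the highest skeletal muscle sum, and its share from muscle was not tested.

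The 5 genes of the opposite order were *Plin2*, *Rxra*, *Cebpb*, *Me1* and *Cav1*. *Rxra*, the partner of PPARγ on DNA, measured 44.0, 24.8 and 25.9 FPKM in bone 1, bone 2 and osteoblasts 1 and 12.9 to 15.5 FPKM in the others. *Me1*, which supplies NADPH for fatty acid synthesis, measured 17.6, 9.26 and 14.2 FPKM in the former and 1.33 to 3.56 FPKM in the latter. *Cebpa*, which sustains *Pparg* in mature adipocytes, followed neither order. It measured 79.7, 35.2 and 1.76 FPKM in bone 1, 2 and 3 and 3.56, 22.9 and 19.3 FPKM in osteoblasts 1, 2 and 3. Fatty acid synthase (*Fasn*) and the desaturase *Scd1* overlapped between both splits, from 16.5 to 75.5 and from 20.6 to 131 FPKM, each lowest in bone 2.

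**Figure D5:**
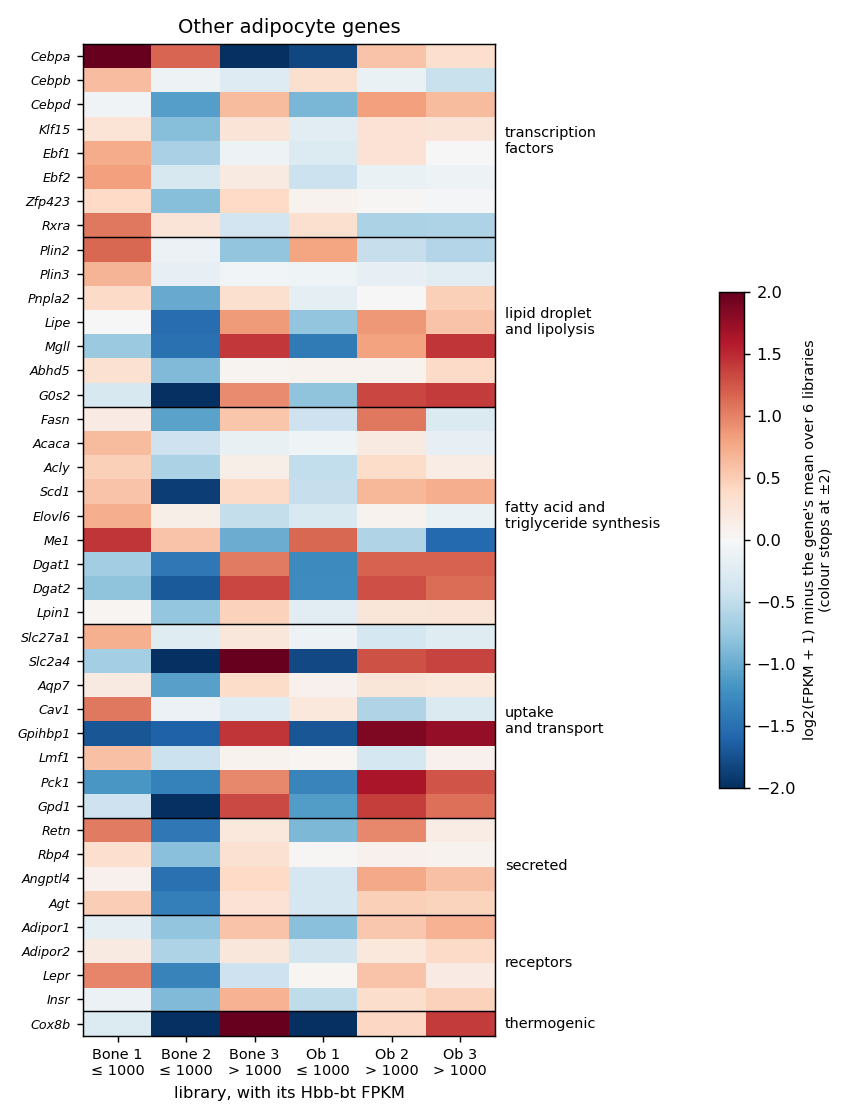
Colour map of the 41 other adipocyte genes tested, in rows grouped by role, over the 6 libraries (Ob, osteoblasts; the *Hbb-bt* level in FPKM is under each library). Colour is log2(FPKM + 1) minus the gene's mean, red above and blue below, ending at 2 either way; bone 2 is blue in most rows, and *Dgat1*, *Dgat2*, *Mgll* and *Gpihbp1* are red in the 3 libraries with *Hbb-bt* above 1000 FPKM.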

How the data were processed

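By the study's methods, total RNA came from bone and BMSC-derived osteoblasts of 3 mice, libraries were made with a TruSeq RNA kit, and 75 bp paired-end reads were sequenced. The authors aligned them to GRCm38 with HISAT2 2.0.5 and estimated expression with StringTie 1.3.3, and the submitters' processing notes also name SAMtools 1.7. The authors deposited FPKM, TPM (FPKM rescaled within a library) and coverage (mean reads over a base) per feature, and no read counts. The FPKM are relative to all aligned reads, unnamed features included.

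Samples were grouped and numbered by their labels. Depth was computed from coverage divided by FPKM, at its most frequent value, and precision beyond the floor of 3 read pairs cannot be given without counts. Lengths for the floor of *Lep* are those of GENCODE vM1 transcripts. The labels were compared on log2(FPKM + 1) by the trended moderated test of limma 3.58.1 (R 4.3.3, two-sided) for genes averaging 1 FPKM or more, with a threshold of 0.05 on the adjusted p. P-values measure only the spread between these libraries. The fit was tested on simulated data with a smaller spread than these libraries and no *Hbb-bt* split. That test therefore does not show how the fit fares on these data. Tables were joined in Python 3.11.15 (pandas 2.3.3).

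The 10 genes, the other adipocyte genes by role, the marker lists and the motifs were chosen with earlier results of these data known. Genes were named when listed there with a mean FPKM of at least 1, as the 5 nearest by distance to *Adipoq* or *Pparg*, or as family members. *Plin5*, *Cideb*, *Cidea*, *Ucp1*, *Dio2* and *Elovl3* are below that mean, the last 3 named as markers of brown adipocytes. The alternatives were a pseudocount of 0.1, no filter or a mean of at least 5 FPKM, TPM, scaling to the named genes or to the 75th percentile, no trend, the replicate number as a block and leaving out each library. Including unnamed features and fitting each side of the *Hbb-bt* split were added after seeing the data.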

Additional observations from a re-analysis of the deposited data

How the results depend on the processing

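Over 16 or 17 alternatives for each of 9 genes (151 values), none was called, the lowest adjusted p being 0.275, and 128 kept their sign while 23 did not, 18 of them with libraries left out or split. By TPM the difference of *Lpl* was −0.048 and that of *Pparg* −0.013, and scaled to the named genes *Lpl* was at −0.15, *Pparg* at −0.091 and *Cidec* at −0.028. Leaving out 1 library gave ranges of −0.26 to 1.17 (*Adipoq*), −0.64 to 1.62 (*Cfd*), 0.073 to 1.52 (*Plin1*), −0.16 to 0.62 (*Plin4*), −0.59 to 0.61 (*Cidec*), −0.087 to 0.94 (*Fabp4*), −1.88 to 0.13 (*Cd36*), −0.74 to 0.83 (*Lpl*) and −0.32 to 0.62 (*Pparg*). Within the libraries of low *Hbb-bt* the signs of *Fabp4* (−0.043) and *Cidec* (−0.63) turned, and within those of high *Hbb-bt* those of *Plin1* (−0.091), *Cfd* (−0.072) and *Cd36* (0.90).

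Over all genes, the calls ranged from 0 to 262 higher and from 0 to 38 lower when a library was left out, with 66 and 11 without bone 3 and 262 and 38 without osteoblasts 1. They were 8 higher within low *Hbb-bt* and 1 lower within high *Hbb-bt*. With the replicate block 46 genes were called higher and 3 lower, no gene of the set among them. Deviations of same-numbered libraries correlated at 0.84, −0.75 and 0.83. Bone and osteoblast libraries on the same side of the *Hbb-bt* split correlated at 0.80 to 0.84, and those across it at −0.91 to −0.72. These values follow the split, so they cannot show whether a number marks the same mouse. The numbers were not taken to pair the samples, because the labels do not say so. Genes without overlap between the labels numbered 111 by FPKM, 49 by TPM, 305 scaled to the named genes, 302 scaled to the 75th percentile and 40 with a mean of at least 5 FPKM. Genes highest in the libraries of low *Hbb-bt* numbered 2045 by FPKM, 5888 scaled to the named genes and 1282 with a mean of at least 5 FPKM, where 7111 genes were tested. Those highest in the libraries of high *Hbb-bt* numbered 4653, 2586 and 2715. Scaling to the named genes moved the median difference of all genes from 0.12 to −0.03. The causes were not tested, apart from the smaller number of genes tested under the stricter filter. With 3 libraries a label and a median SD of 0.66 in bone and 0.48 in osteoblasts on the log2 scale, small differences were out of reach. Some large ones were too, among genes that followed the *Hbb-bt* split. The difference of *Hbb-bt* was 4.16 (SE 4.08) and that of *S100a9* 4.42 (SE 3.81), and neither was called.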

Other observations

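Genes of heat-producing fat were low in all 6 libraries. *Ucp1*, the uncoupling protein of brown adipocytes, was listed at 0 in bone 1, bone 2 and osteoblasts 1 and measured 0.552, 0.977 and 0.180 FPKM in bone 3, osteoblasts 2 and osteoblasts 3. The summed FPKM of *Ucp1*, *Cidea*, *Dio2* and *Elovl3* was at most 2.32. *Cox8b*, a cytochrome c oxidase subunit of brown fat and striated muscle, reached 23.3 FPKM in bone 3, where the summed skeletal muscle markers were highest at 1068 FPKM. It measured 2.44 FPKM in bone 1, 0 in bone 2 and 0, 4.55 and 9.93 FPKM in osteoblasts 1, 2 and 3.

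The adiponectin receptor gene *Adipor1* was above *Adipoq* in all libraries but bone 1. *Adipor1* measured 59.1, 38.0 and 99.8 FPKM in bone 1, 2 and 3 and 37.1, 97.6 and 108 FPKM in osteoblasts 1, 2 and 3. *Lepr*, the leptin receptor and a mark of reticular stroma, measured 14.5, 2.12 and 4.94 FPKM in bone 1, 2 and 3 and 7.14, 10.8 and 7.86 FPKM in osteoblasts 1, 2 and 3, so it was above *Lep* in each library. The summed FPKM of *Lepr*, *Kitl*, *Foxc1* and *Ebf3*, genes of reticular stroma, was 43.8, 12.8 and 12.8 in bone 1, 2 and 3 and 26.1, 18.7 and 17.9 in osteoblasts 1, 2 and 3. None of these genes was called between the labels.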
